A study of Mus musculus with 2 samples.

Results

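A group of 125 mouse protein-coding genes carried 3 or more promoters that stood open in the same tissue, the cerebral cortex, each over 2000 bp from the next. They were 125 of 21938 protein-coding genes, or 0.57%, and 2.18% of the 5725 genes whose annotation lists at least 3 transcript starts that far apart. Membership was chosen by the measured peaks themselves: transcript starts within 250 bp of a DNase peak in both libraries were taken in order from the 5′ end, and each next one over 2000 bp from the last was kept. This gave 394 separate open starts, with 3 in 109 genes, 4 in 13 genes and 5 in Ank2, Pde4d and Dlg2. The counts and heights below describe a group selected on these peaks, and no p-value is attached to them. The number of genes rests on the settings. It was 228 with replicate 1 alone, 140 with replicate 2 alone, 237 with the broader peak set, 79 with a window of 100 bp and 60 with starts of protein-coding transcripts only.

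The study applied DNase-seq, which sequences the sites where the nuclease DNase I cuts chromatin in isolated nuclei, to cortex of the right hemisphere from male B6CASTF1/J mice aged 2 months. B6CASTF1/J is the first-generation cross of C57BL/6J with CAST/EiJ. There was 1 group with 2 libraries, labelled as biological replicate 1 (animal 5) and replicate 2 (animal 6), with no treatment and no control group. Both carry the same donor record, so that they are separate animals rests on the animal numbers alone.

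Many genes have more than one promoter. An upstream and an internal promoter of the same gene give transcripts with different first exons, which can change the start of the protein or only the untranslated leader and the cells in which the gene is used. Vertebrate promoters fall broadly into those rich in the dinucleotide CpG, which are often active in many tissues, and CpG-poor ones, which are more often tissue restricted.

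The heights are the authors' deposited peak heights, whose scaling is not stated, so they are compared within a library. The strict peak set, the smaller of each library's pair, held 91818 peaks in replicate 1 and 75245 in replicate 2. Of these, 589 and 512 lay within 250 bp of a transcript start of the 125 genes, or 0.642% and 0.680%, with a median of 4 per gene and a median width of 260 and 240 bp. The genes lay on most chromosomes, with 13 on chromosome 4, 12 on chromosome 2 and 1 on X. Of the cortical neuron markers, 7 of 8 in replicate 1 and 5 of 8 in replicate 2 had an open start. Of the astrocyte markers 4 of 5 were open in each library, and of the oligodendrocyte markers 3 of 5. No start was open for any of the 5 microglia, 4 endothelium and 4 liver markers, and of the 4 markers of cerebellum or hindbrain 1 was open in replicate 1 and none in replicate 2. In whole tissue, a low peak in many cells and a tall one in few cells cannot be told apart.

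The sequences of 3 genes show how unlike the bases before the open starts of one gene can be. These windows are fixed by the annotated start and need not lie within a peak. Each line gives the 160 bases upstream of an open start (for Ttc39b, of starts 1, 2 and 4), written 5′ to 3′ on the strand of the gene, with CpG dinucleotides in capitals. They were read from the RefSeq GRCm38.p6 genome, the assembly of mm10, and none overlaps an exon of its gene. Like the CpG ratios and motif counts below, they are reference sequence. Alleles of these hybrid mice that differ from it were not read. Pde4d, which encodes a cAMP-specific phosphodiesterase, lies on chromosome 13 and is shown because start 4, far inside the gene, is the CpG-dense one.
Pde4d start 1 (chr13:109116076-109116235, plus strand): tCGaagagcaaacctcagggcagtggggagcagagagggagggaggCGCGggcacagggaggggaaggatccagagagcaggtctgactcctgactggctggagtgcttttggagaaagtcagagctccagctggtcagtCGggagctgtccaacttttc
Pde4d start 2 (chr13:109260494-109260653, plus strand): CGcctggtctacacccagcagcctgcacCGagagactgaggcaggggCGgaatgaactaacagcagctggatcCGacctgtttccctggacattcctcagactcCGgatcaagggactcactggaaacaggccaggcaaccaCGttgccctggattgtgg
Pde4d start 3 (chr13:109685996-109686155, plus strand): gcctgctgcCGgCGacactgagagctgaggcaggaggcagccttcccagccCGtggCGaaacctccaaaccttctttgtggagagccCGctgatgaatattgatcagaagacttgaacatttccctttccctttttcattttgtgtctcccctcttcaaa
Pde4d start 4 (chr13:109902942-109903101, plus strand): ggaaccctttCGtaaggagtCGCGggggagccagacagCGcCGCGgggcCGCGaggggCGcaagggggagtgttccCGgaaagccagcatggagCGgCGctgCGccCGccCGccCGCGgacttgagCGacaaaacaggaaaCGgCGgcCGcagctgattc
Pde4d start 5 (chr13:109926684-109926843, plus strand): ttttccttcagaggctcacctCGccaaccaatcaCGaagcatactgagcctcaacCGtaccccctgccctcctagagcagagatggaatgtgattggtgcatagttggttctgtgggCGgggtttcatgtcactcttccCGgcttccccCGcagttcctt
The window before start 4 held 21 CpG dinucleotides, against 4, 6, 5 and 6 before starts 1, 2, 3 and 5. Its CpG ratio, the observed number of CpG over the number expected from the C and G content, was 1.07, and the other 4 windows lay between 0.308 and 0.509.

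Camta1, a calmodulin-binding transcription activator on chromosome 4, is shown as a gene with CpG-rich promoters at both ends.
Camta1 start 1 (chr4:151861877-151862036, minus strand): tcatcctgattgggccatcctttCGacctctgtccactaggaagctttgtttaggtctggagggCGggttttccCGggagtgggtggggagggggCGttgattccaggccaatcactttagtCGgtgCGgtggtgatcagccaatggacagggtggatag
Camta1 start 2 (chr4:151139585-151139744, minus strand): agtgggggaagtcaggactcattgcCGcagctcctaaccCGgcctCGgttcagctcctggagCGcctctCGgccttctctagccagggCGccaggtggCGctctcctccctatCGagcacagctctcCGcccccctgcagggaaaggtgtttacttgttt
Camta1 start 3 (chr4:151129496-151129655, minus strand): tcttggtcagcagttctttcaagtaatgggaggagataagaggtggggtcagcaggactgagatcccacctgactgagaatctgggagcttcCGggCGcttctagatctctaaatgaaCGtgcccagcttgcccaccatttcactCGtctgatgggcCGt
Camta1 start 4 (chr4:151108577-151108736, minus strand): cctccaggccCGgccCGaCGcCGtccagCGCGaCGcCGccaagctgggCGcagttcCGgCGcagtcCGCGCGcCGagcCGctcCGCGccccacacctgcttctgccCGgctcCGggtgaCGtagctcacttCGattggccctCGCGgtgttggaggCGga
In these 160 bases, starts 1 to 4 had 6, 9, 5 and 25 CpG dinucleotides. The tallest peak at start 3 lay downstream of it, 215 and 209 bp away in replicates 1 and 2, outside the printed bases. Start 1 counts as CpG rich only over the longer window used below, which also takes in 50 bases after the start.

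Ttc39b, also on chromosome 4, encodes a protein with tetratricopeptide repeats and shows the most common arrangement, a CpG-rich 5′ promoter followed by CpG-poor ones.
Ttc39b start 1 (chr4:83324256-83324415, minus strand): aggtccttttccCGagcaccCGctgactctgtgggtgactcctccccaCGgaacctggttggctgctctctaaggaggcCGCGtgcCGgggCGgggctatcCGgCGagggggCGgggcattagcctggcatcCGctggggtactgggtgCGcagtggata
Ttc39b start 2 (chr4:83285170-83285329, minus strand): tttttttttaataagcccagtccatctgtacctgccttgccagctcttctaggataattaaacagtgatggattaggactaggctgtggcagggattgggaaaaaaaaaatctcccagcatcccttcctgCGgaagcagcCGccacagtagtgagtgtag
Ttc39b start 4 (chr4:83233171-83233330, minus strand): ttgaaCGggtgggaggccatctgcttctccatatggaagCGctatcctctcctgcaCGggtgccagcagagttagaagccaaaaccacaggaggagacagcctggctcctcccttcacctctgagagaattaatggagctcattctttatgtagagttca
The 5′ window held 12 CpG dinucleotides, against 2 and 3 in the windows before starts 2 and 4. The window before start 2 begins with a run of T.

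Open starts of the 125 genes were moderately tall peaks. Their heights ran from 0.325 to 12.5 with a median of 1.73 in replicate 1, and from 0.384 to 8.10 with a median of 1.24 in replicate 2. The medians over all strict peaks were 0.933 and 0.806, so the median open start stood at percentile 76.9 and 73.1 of the peaks of its library. An open start takes its tallest peak within 250 bp and needs a peak in both libraries, so these sets are not alike. Over all strict peaks at transcript starts of the 125 genes the medians were 1.45 and 1.11. The tallest peak at a start overlapped between libraries for 378 of 394 starts (95.9%). Across the 394 starts the heights of the libraries correlated with a Pearson's r of 0.941 on the log10 scale and a rank correlation (Spearman) of 0.931, as a description of points that share their libraries and their genes. Replicate 1 had the larger values, with a median ratio of replicate 1 to replicate 2 of 1.44, and 19 starts (4.82%) were higher in replicate 2. The start itself lay inside its tallest peak in 61.7% of cases in replicate 1 and 57.1% in replicate 2. No peak served more than 1 of the separate open starts of a gene.

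Ank2, Pde4d and Dlg2 had the most open starts, 5 each. Ank2 encodes ankyrin-B, an adaptor between membrane proteins and the spectrin skeleton, and its starts on chromosome 3 (minus strand) lay at 127499350, 127409059, 127225933, 127162346 and 126998462. Their heights, from the 5′ end, were 1.65, 3.57, 1.40, 2.16 and 2.04 in replicate 1, and 1.03, 2.20, 0.983, 1.45 and 1.22 in replicate 2. The second start was the tallest in both libraries, starts 1 and 3 were the lowest, and the order of all 5 was the same. The CpG-rich starts of Ank2 were starts 3 and 4, with ratios of 0.628 and 0.714.

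Pde4d opened at 109116236, 109260654, 109686156, 109903102 and 109926844 on chromosome 13. Heights from the 5′ end were 1.42, 0.814, 1.27, 1.20 and 2.82 in replicate 1 and 0.960, 0.714, 0.722, 0.799 and 2.14 in replicate 2. The 3′-most start was thus 3.46 and 3.0 times as tall as the lowest one, and it was CpG poor, with a ratio of 0.388. The CpG-dense start 4, whose sequence is printed above, was not a tall peak in either library.

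Dlg2 encodes PSD-93, a scaffold of the postsynaptic density, and had the longest distance between its outer open starts, 1758251 bp on chromosome 7 (plus strand). Its heights from the 5′ end were 1.32, 0.782, 1.47, 0.870 and 1.20 in replicate 1 and 0.998, 0.730, 1.28, 0.829 and 0.829 in replicate 2. These values lay close together: the tallest was 1.88 and 1.75 times the lowest. Among the open starts with an annotated start codon, no codon was shared in Dlg2, nor in Ank2 or Pde4d. Starts 3 and 5 of Dlg2 had no coding transcript, so they were not compared.

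Camta1, Mxi1, Smarca2 and Ttc39b were among the genes with 4 open starts. In Camta1 the 5′ start reached 6.93 and 4.57 in replicates 1 and 2, while the other 3 lay between 2.18 and 2.69 in replicate 1 and between 1.31 and 2.09 in replicate 2. Smarca2, the BRM ATPase of the SWI/SNF chromatin remodelling complex, had the same form, with a 5′ height of 5.68 and 3.52 against later starts of 1.62, 1.67 and 1.28 in replicate 1 and 1.14, 1.28 and 0.791 in replicate 2. In Ttc39b the heights were 5.16, 1.17, 0.926 and 2.22 in replicate 1 and 3.09, 0.968, 0.852 and 1.67 in replicate 2. In all 3 genes the 5′ promoter stood clear of the rest in both libraries.

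Mxi1 did not have that form. The gene, which encodes a MAX partner that opposes Myc, had nearly level starts at 3.46, 2.47, 3.15 and 3.63 in replicate 1 and 1.96, 1.56, 1.85 and 2.21 in replicate 2. Its lowest start in both libraries was the one after the first.

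**Figure D1:**
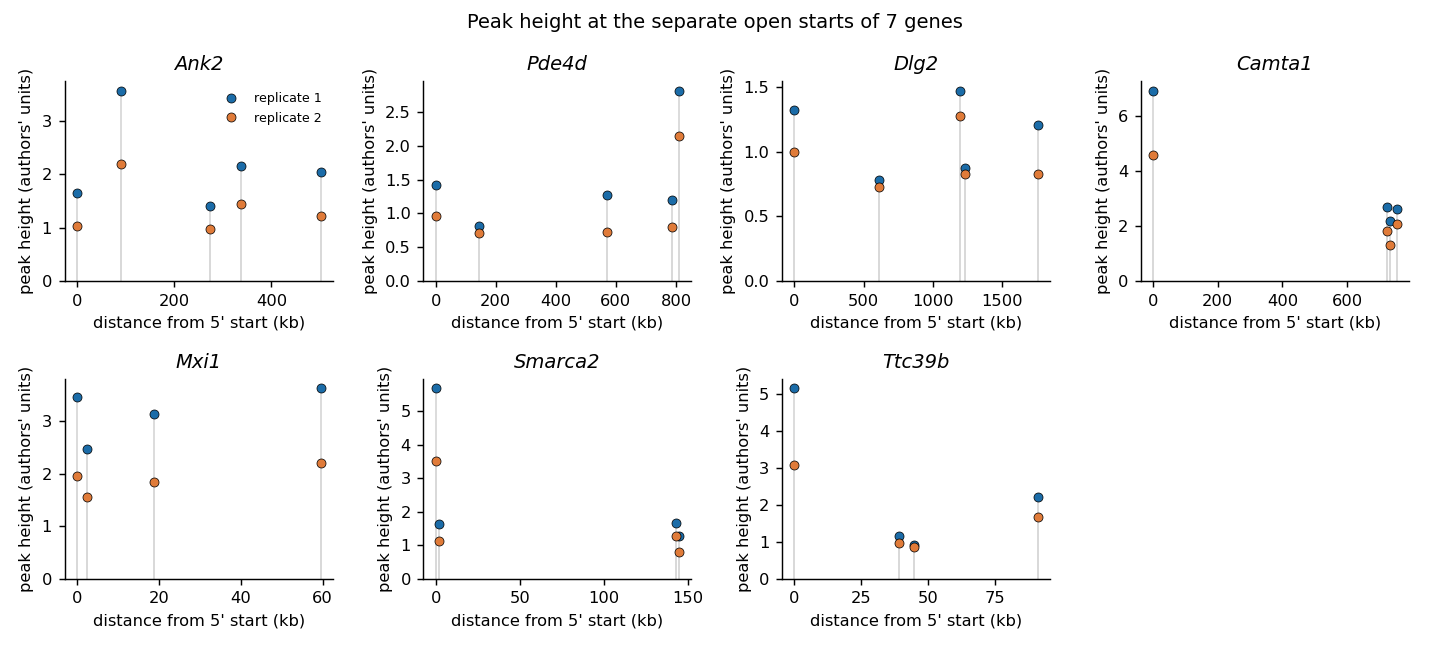
Peak height (authors' units, linear axis from 0) at each separate open start of 7 genes with 4 or 5 open starts, against the distance in kb from the 5′-most open start. Blue points are replicate 1 and orange points replicate 2; Camta1, Smarca2 and Ttc39b are tallest at the 5′ start, and Pde4d and Mxi1 at the 3′-most start.

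The 5′-most open start was the tallest in about 50% of the genes. It led in 66 genes (52.8%) in replicate 1 and 64 genes (51.2%) in replicate 2, a mean of 52.0% ± 1.13 (SD, n = 2 libraries), and in 58 genes in both. The mean share was 43.67% with a window of 100 bp, 45.83% with protein-coding transcripts only, 49.69% with a separation of 1000 bp and 49.58% without starts near other coding genes, so whether it passes 50% rests on the settings. The 3′-most start led in 27 and 29 genes, and one between them in 32 genes in each library. By place, the median heights in replicate 1 were 2.37 for the 125 5′-most starts, 1.63 for the 144 middle starts and 1.57 for the 125 3′-most starts. The same medians in replicate 2 were 1.44, 1.13 and 1.18. The distributions overlapped widely, and the 5′-most start was also the lowest of its gene in 30 and 25 genes.

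**Figure D2:**
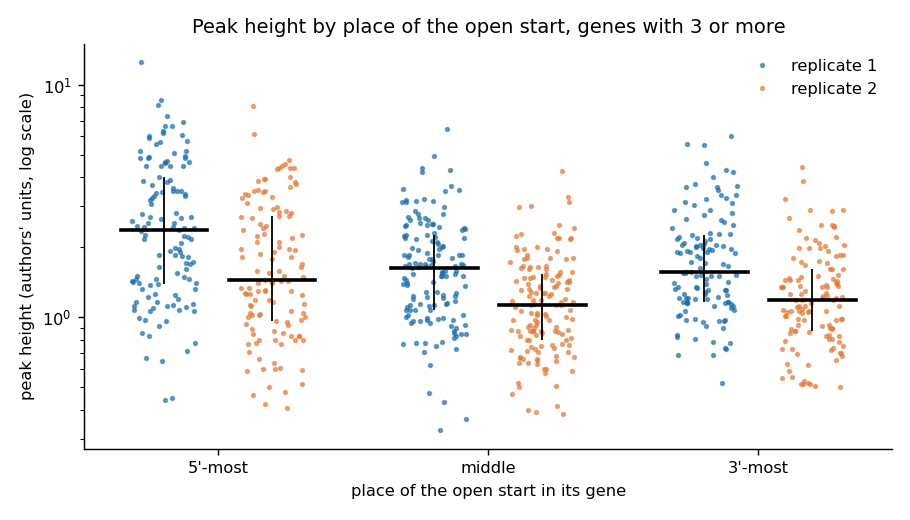
Peak height (authors' units, log scale) of the 394 separate open starts by their place in the gene. Each point is a start, thick lines are medians and thin lines the quartiles; the 5′-most starts have medians of 2.37 in replicate 1 (blue) and 1.44 in replicate 2 (orange), above the middle and 3′-most starts of the same library.

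Genes with 2 separate open starts, drawn from the same genes with at least 3 annotated starts (n = 656), gave the nearest point of reference. There the upstream start was the taller in 64.0% and 62.2% of genes, a count over 2 starts and not over 3 or more. Median heights at the upstream start were 2.37 and 1.44 in the 125 genes in replicates 1 and 2, against 2.72 and 1.77 in genes with 2 open starts. At the 3′-most start they were 1.57 and 1.18, against 1.72 and 1.20. Genes with 1 open start (n = 3858) had medians of 3.30 and 2.24. Among the 3 groups the upstream median was thus lowest in the genes with 3 or more open starts and highest in those with 1, in both libraries.

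Within a gene, the tallest open start was typically about 2.4 times the lowest. The median ratio was 2.50 in replicate 1 and 2.39 in replicate 2 (mean 2.45 ± 0.0719, SD, n = 2 libraries). It exceeded 5 in 20 and 13 genes and lay under 1.5 in 15 and 22 genes. The same start was tallest in both libraries in 106 of 125 genes (84.8%), and all starts kept the same order in 89 (71.2%). In the 19 genes whose tallest start differed between libraries the median ratios were lower, 1.74 and 1.61, against 2.55 and 2.56 in the 106 others. Some of the 19 had wide ratios all the same, such as Park7 with 3.785 in replicate 1 and 3.902 in replicate 2.

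**Figure D3:**
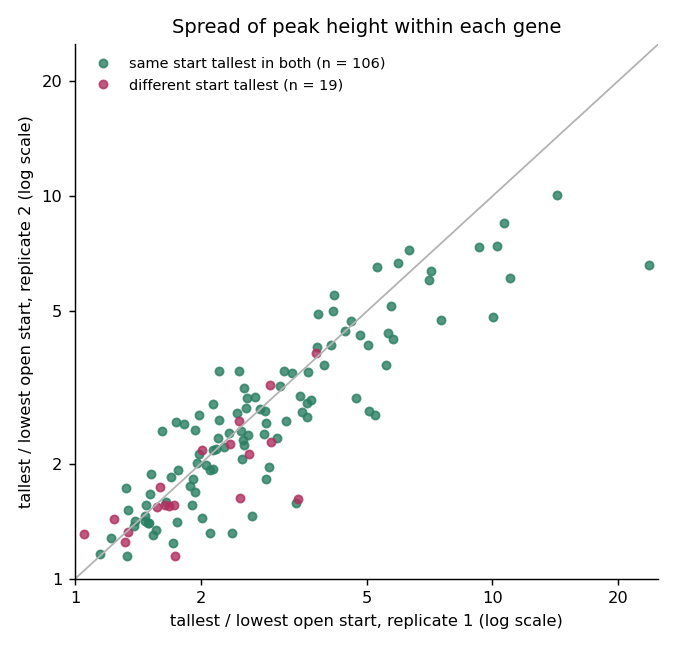
Ratio of the tallest to the lowest separate open start in each of the 125 genes, replicate 1 on the x axis and replicate 2 on the y axis, both log scales. The grey line marks equal ratios; the 19 genes with a different tallest start in each library (red) lie mostly at low ratios, and the 106 others (green) reach 23.8 in replicate 1 and 10.1 in replicate 2.

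Among genes with the same tallest start in both libraries, the largest contrasts were found in Zmynd8, Elavl2, Bcas3, Ankfy1, Mid1 and Acin1. Elavl2, a neuronal RNA-binding protein of the Hu family, had heights of 0.451, 6.45 and 2.04 from the 5′ end in replicate 1 and 0.422, 4.25 and 1.40 in replicate 2. Its low 5′ start thus stood 23488 bp upstream of a start that was 14.3 and 10.1 times as tall. Bcas3 (7.35, 1.65 and 0.688 in replicate 1, 4.39, 1.27 and 0.515 in replicate 2) stepped down from the 5′ end in both libraries. Ankfy1, a Rab5 effector of endosomes, was tall at the 5′ start (4.83 and 2.96) and low at the next (0.469 and 0.399).

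Zmynd8, a reader of modified histones, had the largest ratio in replicate 1, but not a like one in replicate 2. Its heights were 8.63, 0.363 and 1.12 in replicate 1 and 4.48, 0.676 and 0.753 in replicate 2, so that the ratio was 23.8 in replicate 1 and 6.63 in replicate 2. The low middle start was one of the 19 that were higher in replicate 2. At Mid1, a microtubule-associated ubiquitin ligase and the single gene of the group on the X chromosome, the 3′-most start was the tallest (1.81, 0.325 and 3.02 in replicate 1, 0.845, 0.392 and 2.89 in replicate 2).

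Acin1, a nuclear protein that takes part in RNA processing and apoptotic chromatin condensation, held the tallest open start of all, 12.5 in replicate 1 and 8.10 in replicate 2. Its other starts had 1.13 and 2.49 in replicate 1 and 1.33 and 1.61 in replicate 2. That 5′ start also lay near the start of 1700123O20Rik, so its peak cannot be assigned to Acin1 alone. Cic, the repressor Capicua, followed with 8.20 and 6.14 at its 5′ start, and its later starts had 2.27 and 4.01 in replicate 1 and 1.77 and 2.45 in replicate 2. H2-DMa, a chain of the chaperone that loads peptides on MHC class II, was tall at all 3 starts (6.62, 4.94 and 6.00 in replicate 1, 4.75, 3.14 and 4.45 in replicate 2). Its middle start lay near a start of Brd2. In all, 9 open starts in 8 genes lay within 250 bp of a start of another protein-coding gene, 6 of them 5′-most starts.

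Among genes whose tallest start was the same in both libraries, which is how they were picked, Adgrb3, Rbfox1, Nrg1 and Palm2 had the most even starts. Averaged over both libraries, Kalrn was more even than Rbfox1, Nrg1 and Palm2, with ratios of 1.05 and 1.31, but its tallest start differed between libraries. Rbfox1, a regulator of splicing in neurons, had 1.16, 1.55 and 1.21 in replicate 1 and 1.02, 1.18 and 1.08 in replicate 2, over a distance of 1308392 bp on chromosome 16. Adgrb3, an adhesion G protein-coupled receptor, had 1.73, 1.99 and 1.96 in replicate 1 and 1.30, 1.38 and 1.19 in replicate 2. Nrg1, a ligand of ErbB receptors, had 1.13, 1.37 and 1.16 in replicate 1 and 0.599, 0.768 and 0.730 in replicate 2. The order of the lower starts differed between libraries in Adgrb3 and Palm2. Palm2, a paralemmin, had 1.70, 1.23 and 1.31 in replicate 1 and 1.44, 1.37 and 1.05 in replicate 2, and both of its later starts lay near a start of Pakap. The middle start of Nrg1 followed the first by 874538 bp, the widest gap between neighbouring open starts in the group.

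The open starts of one gene mostly differed in CpG content, which the choice of genes did not use. Over 250 bases before to 50 after the start, with CpG rich meaning a ratio of at least 0.6 and a GC content of at least 50%, 81 of 125 5′-most starts were CpG rich (64.8%), against 46 of 144 middle starts (31.9%) and 18 of 125 3′-most starts (14.4%). The median CpG ratios were 0.727, 0.456 and 0.379. Of all 269 later starts 64 were CpG rich (23.8%). Raising the ratio to 0.75 left 42.4% of 5′-most and 15.2% of later starts, in the same order.

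In 98 of 125 genes (78.4%) CpG-rich and CpG-poor open starts stood in the same gene. A start that misses either limit counts as CpG poor. Some had a high ratio but a low GC content, such as start 2 of Fgf9 with a ratio of 0.880 and a GC content of 42.7%. Only Mast3, Pde4dip, Ptprs and Rai1 had CpG-rich sequence at every open start, and 23 genes had none. Among mixed genes with 3 open starts the order from the 5′ end was rich, poor, poor in 44 genes and rich, rich, poor in 18. With a poor start first, the order was poor, rich, poor in 9 genes, poor, poor, rich in 4 and poor, rich, rich in 3. A further 6 genes were rich at both ends and poor between.

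A step down from the first to later starts was also found where fewer promoters were open. In genes with 2 open starts 67.4% of upstream and 29.7% of downstream starts were CpG rich, and of single open starts 74.5% were. Closed starts were rarely CpG rich. Of 378 separate annotated starts of the 125 genes that had no strict peak in either library, 12 (3.17%) were CpG rich, against 2.06% in genes with 2 open starts and 1.83% in genes with 1. The later open starts of the 125 genes lay between the 5′ promoters and the closed starts of the same genes in CpG content.

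**Figure D4:**
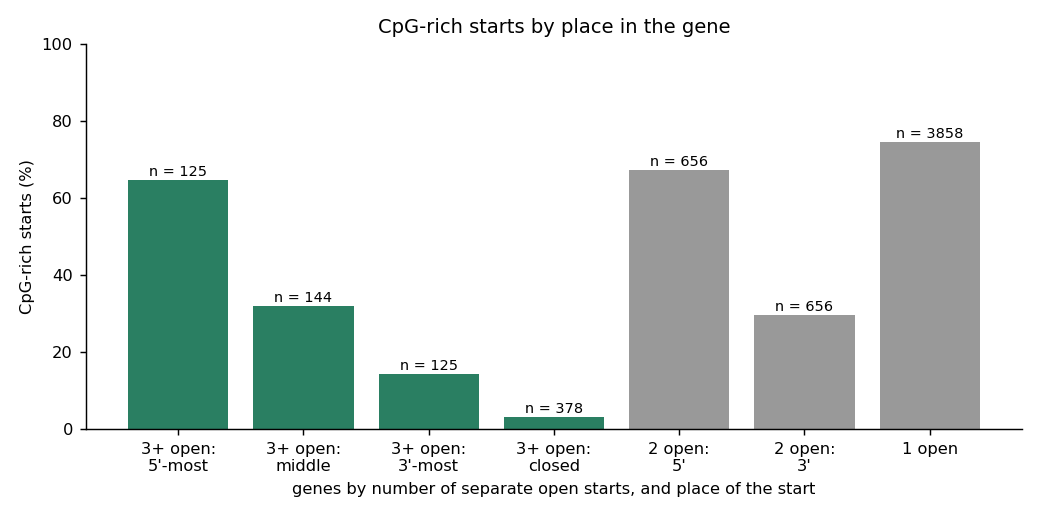
Share of starts that were CpG rich (%), by place in the gene. Green bars are the genes with 3 or more separate open starts, with their closed annotated starts as the last green bar, grey bars the genes with 2 or 1 open starts, and n is the number of starts; the share is 64.8% at 5′-most, 31.9% at middle, 14.4% at 3′-most and 3.17% at closed starts.

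CpG-rich open starts were taller on the whole. In replicate 1 the median height was 2.34 at the 145 CpG-rich and 1.55 at the 249 CpG-poor open starts, and in replicate 2 it was 1.44 and 1.12. The relation was loose, with a Spearman's rho between CpG ratio and height of 0.317 in replicate 1 and 0.272 in replicate 2 across the 394 starts, which share their libraries. In the 98 mixed genes the tallest start was a CpG-rich one in 66 genes in replicate 1 and 61 in replicate 2 (67.4% and 62.2%).

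Several genes ran against the common order, with a CpG-poor first start and a CpG-rich later one. Csnk1e, the clock and signalling kinase casein kinase 1 epsilon, had CpG ratios of 0.170, 1.11 and 0.752 from the 5′ end, and heights of 1.06, 1.85 and 1.35 in replicate 1 and 1.13, 1.04 and 0.983 in replicate 2. Its tallest start differed between the libraries. Prkag2, a regulatory subunit of AMP-activated protein kinase, had ratios of 0.316, 0.962 and 0.325, and its CpG-rich middle start was the tallest at 2.55 and 1.57. Ciz1, a nuclear zinc finger protein, had ratios of 0.186, 0.934 and 0.387 with the tallest peak again in the middle, at 3.23 and 2.41 against 0.976 and 0.768 at the first. In Nav2, a neuron navigator protein, the middle start had a ratio of 1.01 and heights of 3.13 and 2.50. Zmynd8 showed that a tall 5′ peak need not be CpG rich, with a ratio of 0.259 at its height of 8.63.

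Deposited footprints, short stretches protected from DNase I within open chromatin, were present at nearly all open starts. Within 250 bp, the 5′-most starts had a median of 6 footprints in replicate 1 and 4 in replicate 2, against 4 and 3 at both middle and 3′-most starts. At least 1 footprint was found at 96.0% and 92.8% of the 5′-most starts. The 3′-most starts had one in 96.0% and 92.8% of cases as well, and the middle starts in 96.5% and 88.9%. Genes with 1 open start had medians of 6 and 4, with at least 1 footprint at 98.6% and 96.3% of starts. In genes with 2 open starts those shares were 97.6% and 94.0%. CpG-rich open starts, which were also the taller ones, had medians of 6 and 4, against 4 and 3 at CpG-poor ones. The part of peak height in these counts was not tested.

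Consensus motifs were searched on both strands in the same 300 bases. All separate open starts of coding genes, the reference used here, were CpG rich in 66.4%, against 36.8% of the 394. Place in the gene and CpG content were not separated in these counts. The SP/KLF word GGGCGG was in 78 of 125 5′-most starts (62.4%) and 86 of 269 later starts (32.0%), against 61.8% of all 13235 separate open starts of coding genes. The word contains CpG, and it was found at 107 of 145 CpG-rich and 57 of 249 CpG-poor open starts. The cAMP response element TGACGTCA was at 7 of 125 5′-most starts and 1 of 269 later ones, against 3.73% of all open coding starts. The NRF1 consensus was at 11 and 5, or 8.80% and 1.86%, against 10.4%, and the ETS word CCGGAAG at 12 and 15, or 9.60% and 5.58%, against 16.9%.

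Some other words were more common at the later starts. The AP-1 word TGANTCA was at 3 of 125 5′-most (2.40%) and 26 of 269 later starts (9.67%), against 4.54% of all open coding starts. Of these 29 starts 25 were CpG poor. The TATA word TATAAA was at 5 and 26 of them (4.0% and 9.67%), against 6.57%, and 29 of the 31 in all were at CpG-poor starts. The E-box CAGCTG was at 24 of 125 5′-most (19.2%) and 63 of 269 later starts (23.4%), against 15.3%. The NFY word CCAAT was at 36.0% of 5′-most and 32.3% of later starts. The other 4 of the 12 words searched, YY1 (AANATGGC), the E-box CACGTG, EGR (GCGTGGGCG) and the octamer ATGCAAAT, were at 17, 24, 5 and 11 of the 394 open starts (4.31%, 6.09%, 1.27% and 2.79%), against 8.15%, 10.2%, 1.14% and 1.55% of all open coding starts. By place, YY1 was at 4.0% of 5′-most and 4.46% of later starts, CACGTG at 7.20% and 5.58%, EGR at 1.60% and 1.12% and the octamer at 1.60% and 3.35%. EGR and SP/KLF words can overlap. A match is no more than those letters in the window, and several of these counts are small.

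By position in the gene, 244 of 269 later open starts (90.7%) lay in introns of transcripts that began further upstream, and 25 (9.29%) in exons. Neighbouring open starts were 45634 bp apart in the median, from 2001 to 874538 bp; 13.01% of the 269 gaps were under 5000 bp and 25.3% were 100000 bp or more. The distance between the outer open starts had a median of 99829 bp and ran from 4568 bp in Fgf9 to the 1758251 bp of Dlg2. It was over 100000 bp in 62 genes and over 500000 bp in 15. After Dlg2 the longest were Magi2, a synaptic scaffold, with 1474633 bp, Rbfox1 with 1308392 bp and Nrxn3 with 1089607 bp. Magi2 had heights of 2.44, 0.995, 0.983 and 3.36 in replicate 1 and 1.41, 0.875, 0.875 and 1.29 in replicate 2, so that its outer starts were taller than its inner ones in both, and its tallest start differed. The 3′-most start of Magi2, at 20701669, lay close to the end of the gene at 20704792. No coding transcript began there.

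Not every open start was the annotated beginning of a protein. In 53 genes (42.4%) a protein-coding transcript began at, or within 2000 bp downstream of, every open start. At 88 of 394 open starts (22.3%), 85 of them later ones, no coding transcript began there, and their peaks were lower. Their median height was 1.35 in replicate 1, where starts with a coding transcript had 1.89, and 0.960 in replicate 2, where those had 1.29. In 59 genes (47.2%) no start codon was common to any pair of the open starts that had one annotated. Open starts without an annotated start codon were not compared. In 24 genes (19.2%) a single start codon was common to all those with one annotated, so that by the annotation a transcript from each of them can begin the same protein. Some of the starts shared a codon in 22 genes, and 20 genes had too few starts with an annotated codon to say.

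Ptprs and Nr3c1 are examples with a common start codon. Ptprs, the receptor tyrosine phosphatase sigma of axons and synapses, was CpG rich at all 3 open starts and had heights of 5.58, 4.20 and 1.55 in replicate 1 and 3.99, 2.98 and 1.38 in replicate 2, lower towards the 3′ end. Nr3c1, the glucocorticoid receptor, had 4 open starts, at heights of 0.670, 1.67, 1.00 and 1.15 in replicate 1 and 0.768, 0.906, 1.25 and 1.07 in replicate 2. Its first start was the lowest in both libraries, but start 2 was tallest in replicate 1 and start 3 in replicate 2.

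The annotation sets how many starts can be found. The 125 genes had 785 separate annotated starts, when separation was applied before openness, of which 365 (46.5%) were open in both libraries, 42 in one and 378 in neither. In the other genes with at least 3 separate annotated starts 21.1% of 22927 were open in both. A higher share is what the choice of genes fixes. Of the closed starts of the 125 genes 86.2% had no base below a false discovery rate of 0.05 within 250 bp in either library, against 91.7% in the other genes, so most closed starts had no listed base at all. The 5′-most annotated start was itself the first open one in 99 genes (79.2%).

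Genes with 3 or more open starts were long. Their median length was 173606 bp, against 78760 bp with 2 open starts, 46640 bp with 1 and 42710 bp with none, all with at least 3 separate annotated starts. They had a median of 6 separate annotated starts against 4, 4 and 3. The share of genes with 3 or more open starts was 0.479% with 3 annotated starts, 1.41% with 4, 3.40% with 5, 6.31% with 6 to 7 and 11.03% with 8 or more. By length it was 0.398% under 20000 bp, 1.21% both from 20000 to 50000 bp and from 50000 to 100000 bp, 4.02% from 100000 to 300000 bp and 10.2% above. More annotated starts give more chances to be counted, and length and number of starts were not separated here.

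**Figure D5:**
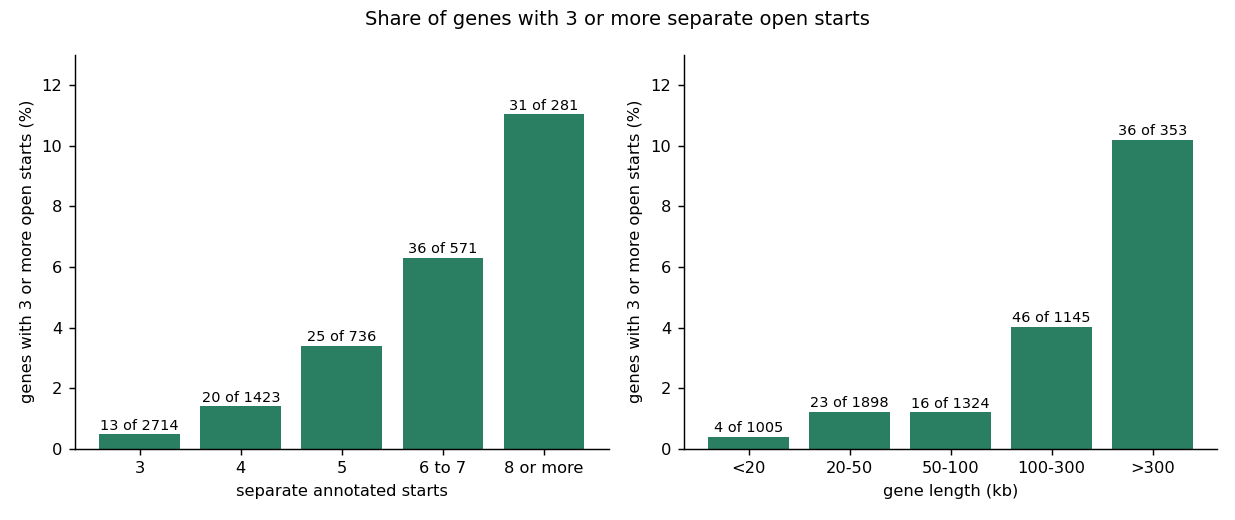
Share (%) of genes with 3 or more separate open starts among the 5725 genes with at least 3 separate annotated starts, by the number of separate annotated starts (left) and by gene length in kb (right). Numbers above the bars are genes with 3 or more open starts of all genes in the bin; the shares reach 11.03% with 8 or more annotated starts and 10.2% above 300 kb.

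The group held genes of synapse, cytoskeleton and RNA processing. Of 317 genes in 15 lists 20 belonged to it (6.31%), against the 0.57% of all protein-coding genes. Of the 317, 221 had at least 3 separate annotated starts. The like comparison is 20 of these 221 against the 2.18% of all genes with at least 3 separate annotated starts. The lists were drawn up with earlier results of these data known and hold many long neuronal genes, so these counts are descriptions.

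Among RNA-binding proteins 4 of 20 were in the group, namely Elavl2, Elavl4, Rbfox1 and Rbfox2, which bind neuronal messages or direct splicing. Rbfox2 had heights of 2.59, 2.29 and 1.496 in replicate 1 and 1.497, 2.28 and 1.46 in replicate 2, so its tallest start differed between libraries. Of 23 cytoskeletal linkers and microtubule proteins there were 4, Ank2, Dst, Map2 and Syne1. They were 19.05% of the 21 with at least 3 separate annotated starts. Map2, the microtubule-associated protein of dendrites, had 2.23, 2.00 and 1.33 in replicate 1 and 1.49, 1.66 and 1.07 in replicate 2. Syne1, the nuclear envelope linker nesprin-1, had 1.40, 1.28 and 1.88 in replicate 1 and 1.24, 0.929 and 1.36 in replicate 2, tallest at the 3′-most start in both, and no CpG-rich start.

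Among synaptic genes, the adhesion molecules Nrxn3 and Ptprs and 3 of 20 postsynaptic scaffolds (Dlg2, Shank2 and Shank3) were in the group. These scaffolds were 16.7% of the 18 with at least 3 separate annotated starts, against 2.18% of all such genes. Nrxn3 had a low middle start, with 2.41, 0.851 and 2.17 in replicate 1 and 1.82, 0.760 and 1.61 in replicate 2. Shank2 had 1.46, 1.53 and 2.65 in replicate 1 and 1.16, 0.860 and 2.19 in replicate 2. Shank3 had 1.08, 2.36 and 2.76 in replicate 1 and 0.707, 1.19 and 1.97 in replicate 2. Both Shank genes, master scaffolds of excitatory synapses, were thus tallest at the 3′-most open start in each library.

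Of all genes with at least 3 separate annotated starts 2.18% were in the group. In further lists 3.45% to 7.14% of such genes were, which was 1 gene each. They were Pde4d of 17 cyclic nucleotide phosphodiesterases, Dclk1 of 23 protein kinases of neuronal signalling, Nrg1 of 22 growth factors and receptors, Nr3c1 of 35 transcription factors of neurons, Kalrn of 26 exchange factors and GTPase activating proteins, and Cacnb2 of 28 voltage-gated ion channels. Dclk1, a doublecortin-like kinase of microtubules, was tallest at its 3′-most start (2.37, 1.69 and 4.29 in replicate 1, 1.70, 0.906 and 2.86 in replicate 2). Kalrn, an activator of Rac at dendritic spines, was nearly level at 2.34, 2.40 and 2.28 in replicate 1 and 1.31, 1.62 and 1.72 in replicate 2. Cacnb2, a calcium channel beta subunit, had 1.09, 1.44 and 1.10 in replicate 1 and 0.829, 0.875 and 0.507 in replicate 2.

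No gene was found among the 13 circadian clock, 16 immediate early, 21 glutamate and GABA receptor, 15 imprinted and 15 housekeeping genes. In the same order, these lists had only 4, 2, 9, 7 and 6 genes of at least 3 separate annotated starts, which could qualify. Of all such genes 2.18% were in the group, so lists this small cannot show a lack. Some genes known for many promoters were not in the group. Bdnf, a neurotrophin, had 5 separate annotated starts and none open in both libraries, Gnas had 6 and 1, Dmd 9 and 1, and Ank3 and Tcf4 14 and 2 each.

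At the edges of the rule, the closest open starts that were kept apart were 2001 bp from each other in Zeb1, 2008 bp in Tenm4, 2015 bp in L3mbtl3, 2018 bp in Nr3c1 and 2024 bp in Pik3r1. Just outside were Scn2a, Dpf1, Pde10a and Ralyl with 2 separate open starts, in which a further open start lay 1759, 1682, 1654 and 1565 bp from a kept one. The starts farthest from their peak were 250 bp away in Ssbp3, 249 bp in Frmd4a, 247 bp in Csnk1e and 241 bp in Nav2. All 394 open starts had a base with a listed false discovery rate, the highest of the lowest values being 0.000536 in replicate 1 and 0.000698 in replicate 2.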

How the data were processed

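The 2 DNase-seq libraries were used as peak sets, false discovery rates per base and footprints on mm10, all deposited by the authors and made per library, per the file headers. The peak signal is the authors' height, with its scaling not stated. The false discovery rate is a q-value deposited for bases under 0.05. Each deposited footprint holds the same value, 0.01, taken here for the p-value limit of the authors. The sources used here name no aligner, peak caller or footprint caller. No read depth was used, so the precision of single heights is unknown.

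Transcript starts came from GENCODE M21 on 21 chromosomes, sequence from GRCm38.p6. The height at a start is that of the tallest strict peak within 250 bp. Genes are named for most open starts (8), tallest start (6), largest (6) and smallest (4) height ratio among genes with the same tallest start in both libraries, longest span (5), CpG-poor first and CpG-rich later starts (5), and up to 3 per list. Some of the items so chosen are left out of the text. Fgf9, the 4 genes CpG rich throughout, the known multi-promoter genes outside the group and those at the rule's edges were named after their values were seen. Genes and lists were chosen with earlier results of these data known. On simulated peaks all 97 genes given 3 or more open starts were returned, and none of 103 with fewer or 100 in 1 library only. The simulated peaks all lay within 250 bp of starts already set apart, so this tried the code and not the choice of settings. With 1 group, values are per library or mean ± SD, with no test. Alternatives covered window, separation, peak set, transcripts and each library left out. Tools were Python 3.11.15, numpy 2.4.6, scipy 1.17.1, pysam 0.24.0 and bedtools 2.31.1.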

Additional observations from a re-analysis of the deposited data

How the results depend on the processing

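The number of genes, 125, was 79 with a window of 100 bp, 237 with the broader peak set, 60 with protein-coding transcripts only, and 140 to 228 with 1 library left out. Their regions, 550.5 per library on average, numbered 318.5, 1189.5, 257.5 and 571 to 1053.0 under the same settings. The share of genes with the tallest peak at the 5′-most open start, 52%, was 43.67% with a window of 100 bp, 54.64% with 500 bp, 49.69% and 50.52% with separations of 1000 and 5000 bp, 54.01% with the broader set, 53.92% with separation before openness, 45.83% with protein-coding transcripts only, 49.58% without starts near other coding genes, 54.8% with heights taken over 2000 bp downstream, and 50% to 52.86% with 1 library left out. The spread of replicates against which these moves are read is an SD of 1.13 over 2 libraries. The ratio of tallest to lowest start, 2.445, was 2.569 with a window of 500 bp, 2.354 with a separation of 5000 bp, 2.762 with the broader set and 2.443 to 2.803 with 1 library left out. CpG-rich starts, 36.8%, were 43.32% with protein-coding transcripts only and 23.86% at a ratio of 0.75. By place, an alternative added after seeing the data, 5′-most starts gave 42.4% and later starts 15.24% at that ratio, and later starts 31.5% with protein-coding transcripts only. In every setting run the 5′-most starts had the larger CpG-rich share. Causes of these moves were not tested. Of all values recomputed 56 stayed within the limit set for them and 27 passed it. That limit was a fixed factor for the counts of genes and regions, and the replicate or counting spread for the others. No paired analysis was possible because there was 1 group of 2 libraries. Depth is unknown, so a start without a peak was not detectable as open here, which does not show it closed in the tissue. Starts are those of the annotation, and peaks do not show that a transcript begins there.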
